A study of Mus musculus with 6 samples.

Results

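The genes described here encode 9 enzymes or enzyme subunits of the citric acid cycle: Cs, Idh3a, Idh2, Ogdh, Dlst, Suclg1, Fh1, Mdh2 and Mdh1. They were chosen by gene symbol from a fixed list, and all 9 were found among the 19505 genes measured, each through 1 array feature. Expression was measured in B16F10, an established line of pigmented mouse melanoma cells, on single-colour Affymetrix arrays. The cells were grown in RPMI1640 and, a day after plating, had their medium changed for 48 h. The control group received medium alone. The other groups received medium with the compound labelled di-sq, named SQ-diEG in the series title, at 2.5 µM or at 40 µM. Each group held 2 arrays. No genetic change is named. Whether the replicate arrays stand for separate cultures is not stated, and p-values then cover the spread between arrays, which may be technical.

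The citric acid cycle is the mitochondrial pathway that oxidises acetyl groups from sugars, fats and amino acids. It passes the electrons to NAD and FAD for the respiratory chain and supplies carbon skeletons for lipid and amino acid synthesis. In proliferating tumour cells, much of the citrate leaves the mitochondrion for lipid synthesis, and glutamine refills the cycle at 2-oxoglutarate. Idh2 and Mdh1 stand beside the ring itself. The first encodes the NADP-dependent mitochondrial isocitrate dehydrogenase, and the second the cytosolic malate dehydrogenase of the malate-aspartate shuttle.

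The deposited values are on a log2 scale and were made by robust multi-array averaging (RMA), so that a difference of 1 is a doubling on the deposited scale. Array values are relative within an array, and fewer cells and less RNA per cell cannot be told apart in RNA from whole wells. Levels of different genes come from different probes and were not set against each other. As a measure of background, the level that 95% of the negative control features stayed under was 9.94 in the mean of the arrays, and it is called the negative control level. All 9 genes had a mean over the 6 arrays above it, with Dlst and Fh1 just below it in the controls, as were Mdh1 on 2.5 µM replicate 2 and Dlst on 40 µM replicate 2. Replicate 1 at 2.5 µM and replicate 1 at 40 µM had lower hybridisation controls (10.4 and 10.3) than the other 4 arrays (10.8 to 11.2) and lower poly-A controls (5.65 and 5.63 against 6.35 to 7.42). These 2 arrays also spread the genes more widely, with interquartile ranges of 5.20 and 5.43 log2 units against 4.90 to 4.94. The highest hybridisation and poly-A controls of the 6 arrays were on 40 µM replicate 2 (11.2 and 7.42), and the lowest on 40 µM replicate 1. Of 10 melanocyte markers 9 lay above the negative control level, whereas 0 of 6 fibroblast, 0 of 6 keratinocyte, 0 of 4 leukocyte and 0 of 5 endothelial markers measured did.

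Across the cycle the treated arrays did not behave alike. On 40 µM replicate 1 the median difference of the 9 genes from the control mean was 0.90 log2 units, with 8 of 9 above that mean, and on 2.5 µM replicate 1 it was 0.69, with 7 of 9 above. On replicate 2 the medians were 0.05 at 40 µM and 0.12 at 2.5 µM. The 4147 genes above the negative control level had medians of 0.08 on each of the replicate 1 arrays, and of -0.01 and 0.03 on replicate 2 at 40 µM and 2.5 µM. The higher values of the cycle genes were therefore found mainly on the 2 arrays with low hybridisation and poly-A controls, at both doses. The part of these array properties in the differences was not tested. Fh1 was the member with the highest value relative to control on 40 µM replicate 2.

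**Figure D1:**
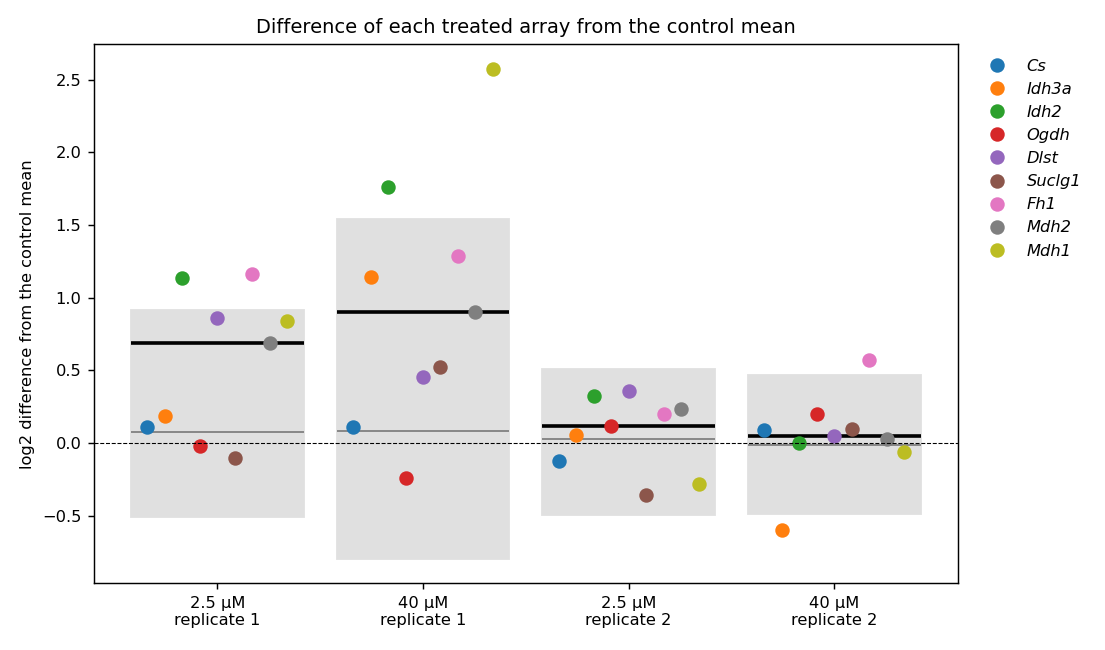
Log2 difference of each of the 9 genes (coloured points) from its control mean, on each of the 4 treated arrays. Thick lines mark the median of the 9, and grey boxes with a thin line the 5th to 95th percentile and the median of the 4147 genes above the negative control level. The medians of the 9 are 0.69 and 0.90 on the replicate 1 arrays and 0.12 and 0.05 on the replicate 2 arrays.

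The promoters shown are those of Fh1 and Mdh1, with a short stretch upstream of Ogdh. All 4 treated arrays lay above both controls for Fh1, as they also did for Dlst, whose promoter is not shown. Mdh1 differed most between the arrays at 40 µM. The lowest value of Ogdh was on the array where most other members were highest. The sequences are from RefSeq, build GRCm38.p6, and run 5′ to 3′ on the strand of the gene. RefSeq promoters were matched for 8 of the 9 genes. Fh1 and Mdh1 are shown as the 250 bases before the start, at chr1:175625636-175625885 (minus strand) and chr11:21571935-21572184 (minus strand), and Ogdh as 25 bases before one of its starts, at chr11:6292533-6292557 (plus strand). Capitals mark the core of the site for NRF1, a factor known for binding promoters of nuclear genes for mitochondrial proteins.
Fh1: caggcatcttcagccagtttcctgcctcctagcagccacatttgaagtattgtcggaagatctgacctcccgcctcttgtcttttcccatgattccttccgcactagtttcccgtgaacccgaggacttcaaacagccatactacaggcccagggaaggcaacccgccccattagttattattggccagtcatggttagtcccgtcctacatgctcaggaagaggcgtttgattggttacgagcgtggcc
Mdh1: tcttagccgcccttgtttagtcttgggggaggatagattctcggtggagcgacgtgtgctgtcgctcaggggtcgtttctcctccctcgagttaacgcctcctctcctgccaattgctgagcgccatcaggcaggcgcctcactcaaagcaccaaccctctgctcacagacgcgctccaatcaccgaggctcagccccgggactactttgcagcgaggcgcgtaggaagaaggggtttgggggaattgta
Ogdh: taggtgttgtGCGCATGCgtaactc

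The 250 bases before each start were searched on both strands for 3 cores of factors known to act on mitochondrial genes. The NRF1 core GCATGCGC was present in 2.26% of all 32851 windows of this length. Of the 13 windows of these genes it was in 2, which overlap and hold the same site of Ogdh. Ogdh has several starts, and its other windows lacked the core. The core AAGGTCA of the estrogen-related receptors was present in 4.08% of all windows and the GABPA core CCGGAAGT in 2.88%, each in 0 of the 13 windows of these genes. These are matches of letters, and the deposited data hold no measurement of binding.

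Cs encodes citrate synthase, which joins acetyl-CoA to oxaloacetate and opens the cycle. Its log2 level was 14.29 and 14.33 in control, 14.42 and 14.19 at 2.5 µM, and 14.42 and 14.40 at 40 µM. Both 40 µM arrays lay above both controls, by little, and the 2.5 µM arrays lay on either side of them. The log2 change was 0.10 at 40 µM with a 95% confidence interval from -0.29 to 0.49, and -0.01 at 2.5 µM with an interval from -0.40 to 0.39. Of the 9 genes, Cs differed least between the 2 arrays at 40 µM, by 0.02.

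Isocitrate is oxidised by the NAD-dependent enzyme, whose catalytic subunit is encoded by Idh3a, and by the NADP-dependent enzyme encoded by Idh2. Idh3a was at 12.12 and 12.25 in control and at 12.37 and 12.24 at 2.5 µM. At 40 µM it was at 13.33 on replicate 1 and 11.59 on replicate 2. The 40 µM arrays thus lay on opposite sides of the controls, by 1.14 above and 0.59 below the control mean. The log2 change of 0.27 had a standard error of 0.49 (limma, adjusted p = 0.831).

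Idh2 was at 11.15 and 11.18 in control, at 12.30 and 11.49 at 2.5 µM, and at 12.92 and 11.17 at 40 µM. Both 2.5 µM arrays lay above both controls, while at 40 µM replicate 1 was the highest array of all and replicate 2 lay between the controls. The log2 change was 0.88 ± 0.54 (SE) at 40 µM (limma, adjusted p = 0.522) and 0.73 ± 0.54 (SE) at 2.5 µM (limma, adjusted p = 0.684). Against the control mean the 40 µM value was 1.76 on replicate 1 and 0.0003 on replicate 2.

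The 2-oxoglutarate dehydrogenase complex makes succinyl-CoA. Ogdh encodes its decarboxylating component and Dlst its succinyltransferase. Ogdh was at 13.57 and 13.64 in control, at 13.59 and 13.72 at 2.5 µM, and at 13.36 and 13.81 at 40 µM. It was the gene of the 9 with its lowest value on 40 µM replicate 1 and its highest on 40 µM replicate 2. The log2 changes of -0.02 at 40 µM and 0.05 at 2.5 µM were smaller than their standard error of 0.20. The first changed sign with the arrays centred on their medians, to 0.02, and the second with quantile normalization, to -0.01.

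Dlst was at 9.75 and 9.71 in control, at 10.59 and 10.09 at 2.5 µM, and at 10.19 and 9.78 at 40 µM. All 4 treated arrays lay above both controls, with 40 µM replicate 2 higher than the upper control by a small margin, and the mean level was highest at 2.5 µM. Both controls lay below the negative control level of their array. With each control set at that level, the mean of the 2.5 µM arrays was 1.30-fold higher, a lower bound for the means that leaves out the spread between arrays. Both 2.5 µM arrays were above the level of their array, replicate 2 by little (10.09 against 10.06). At 40 µM 1 of 2 arrays was above it. The fitted log2 change at 2.5 µM, which takes the control values as measured, was 0.61 with a 95% confidence interval from 0.02 to 1.20 and missed the threshold (limma, adjusted p = 0.518; unadjusted p = 0.0448). At 40 µM it was 0.25 with an interval from -0.34 to 0.84. Dlst was the member whose 40 µM level was below the 2.5 µM level within each replicate number, by -0.40 on replicate 1 and -0.31 on replicate 2, although the groups overlapped.

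Suclg1 encodes the alpha subunit of succinyl-CoA synthetase, which forms succinate and a nucleoside triphosphate. It was at 11.43 and 11.29 in control, at 11.26 and 11.00 at 2.5 µM, and at 11.89 and 11.46 at 40 µM. The 3 groups did not overlap, with 2.5 µM lowest and 40 µM highest. Both doses were apart from control by little (11.26 against 11.29, and 11.46 against 11.43), less than the 0.14 between the controls. The log2 change from 2.5 µM to 40 µM was 0.54 with a 95% confidence interval from 0.02 to 1.06 (limma, adjusted p = 0.854; unadjusted p = 0.0436), and it was 0.62 on replicate 1 and 0.46 on replicate 2. Against control the changes were 0.31 ± 0.22 (SE) at 40 µM and -0.23 ± 0.22 (SE) at 2.5 µM, and both 95% confidence intervals include 0.

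Fh1 encodes fumarase, which hydrates fumarate to malate. It was at 9.92 and 9.86 in control, at 11.05 and 10.09 at 2.5 µM, and at 11.17 and 10.46 at 40 µM. All 4 treated arrays lay above both controls, and the arrays of the 2 doses overlapped. On 2.5 µM replicate 2 Fh1 was above the negative control level of that array by little (10.09 against 10.06). The 40 µM mean was 10.82 ± 0.51 against 9.89 ± 0.04 in control (SD, n = 2). Both control arrays lay below the negative control level of their array, so the fold of the means has only a lower bound. With each control set at the level of its array, the mean of the 2 arrays at 40 µM was 1.81-fold higher. This bound leaves out the spread between the 40 µM arrays, of which replicate 2 was the lower. The fitted log2 change of 0.93, which takes the control values as measured, had a 95% confidence interval from 0.07 to 1.79 and missed the threshold (limma, adjusted p = 0.396; unadjusted p = 0.0379). Without 40 µM replicate 1 the change was 0.57, and at 2.5 µM it was 0.68 with replicate 1 and replicate 2 together and 0.20 without replicate 1.

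The last step, malate to oxaloacetate, is run in the mitochondrion by the enzyme of Mdh2. Mdh2 was at 12.26 and 12.34 in control, at 12.98 and 12.53 at 2.5 µM, and at 13.20 and 12.32 at 40 µM. Both 2.5 µM arrays lay above both controls, and 40 µM replicate 2 lay between the controls. The group means at 2.5 µM and 40 µM were both 12.76, and the log2 changes against control were 0.46 ± 0.31 (SE) for each dose (limma, adjusted p = 0.651 and 0.549). At 40 µM the change was 0.027 without replicate 1 and 0.90 without replicate 2.

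Mdh1, the cytosolic form, had the largest mean change and the largest error of the 9 at 40 µM. It was at 9.98 and 10.20 in control, at 10.93 and 9.81 at 2.5 µM, and at 12.67 and 10.03 at 40 µM. Control replicate 1 and 40 µM replicate 2 lay at the negative control level of their array (9.98 and 10.03). With 2.5 µM replicate 2 below that level, the changes of Mdh1 rest in part on values near background. At each dose replicate 1 was above both controls, while replicate 2 lay below both controls at 2.5 µM and between them at 40 µM. The log2 change at 40 µM was 1.26 ± 0.78 (SE), 2.39-fold, with a 95% confidence interval from -0.59 to 3.10 (limma, adjusted p = 0.526). It was 2.58 on replicate 1 alone and -0.06 on replicate 2 alone. At 40 µM replicate 1 exceeded replicate 2 by 2.64. As a signed difference, replicate 1 minus replicate 2, this was larger than in 99.5% of the genes above the negative control level.

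**Figure D2:**
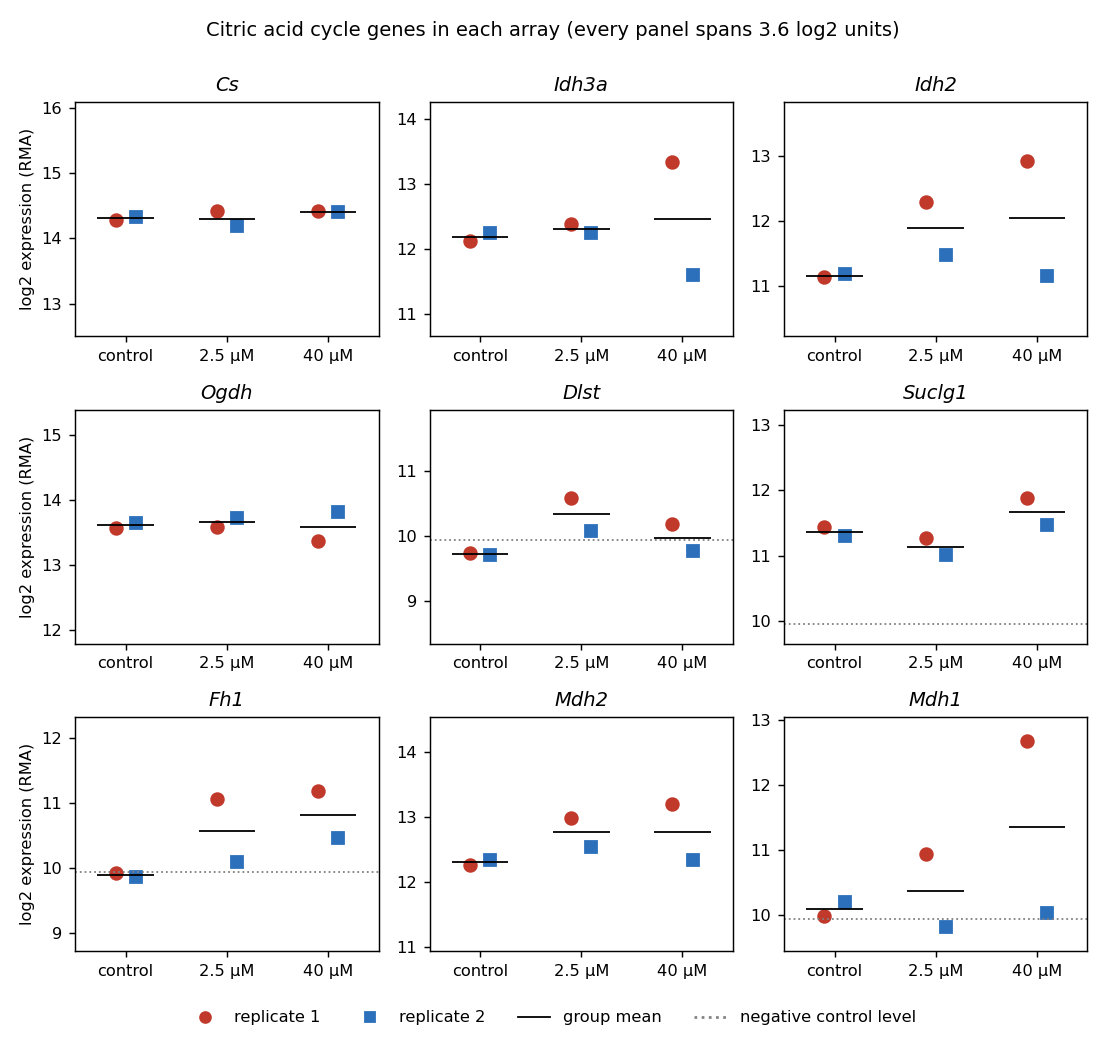
Deposited log2 expression of each gene in the 3 groups, 1 point per array (circles replicate 1, squares replicate 2), with the group mean as a line and the negative control level of 9.94 dotted. Every panel spans the same range of log2 units. Control arrays lie close together in all panels, and the arrays at 40 µM lie far apart for Mdh1, Idh2 and Idh3a and close together for Cs.

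Setting 40 µM against control asks what the higher dose changed. With limma, 0 of the 9 genes passed over all genes, and so did 0 of 19505 in all (0% called), the smallest adjusted p over all genes being 0.334. At an unadjusted p under 0.05, 1 of the 9 (Fh1) was higher and 0 were lower, where 5.18% of all genes were higher and 6.86% lower. The median log2 change of the 9 was 0.31, with 8 of 9 above 0, against a median of -0.01 over all genes and 0.05 over those above the negative control level. Both 40 µM arrays lay above both controls for 4 of the 9 (Cs, Dlst, Suclg1 and Fh1), as they did for 22.2% of all genes and 26.2% of those above the negative control level. They lay below for 0 of the 9, against 26.3% of all genes. Without 40 µM replicate 1 the median of the 9 was 0.05. Without 40 µM replicate 2 it was 0.90, and Idh2, Idh3a, Mdh1 and Mdh2 passed (limma, adjusted p = 0.0282, 0.0197, 0.0247 and 0.0463), where 11.5% of all genes passed. That fit assumes that the array left at 40 µM varies like the other groups. Without both replicate 1 arrays of treated cells, whose fit takes its error from the control pair, Fh1 passed as higher and Idh3a as lower (limma, adjusted p = 0.00896 and 0.00505), where 19.2% of all genes passed.

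Setting 2.5 µM against control asks this of the lower dose. None of the 9 passed (limma, 0 of 19505 genes, 0% called), with 0.479 as the smallest adjusted p over all genes. At an unadjusted p under 0.05, 1 of the 9 (Dlst) was higher and 0 were lower, where 4.24% of all genes were higher and 5.38% lower. The median change was 0.28, with 7 of 9 above 0, against 0.01 over all genes. Both arrays lay above both controls for Idh2, Dlst, Fh1 and Mdh2, 4 of 9, against 27.1% of all genes and 34% of those above the negative control level, and below for Suclg1 against 25.9%. Without 2.5 µM replicate 1 the median was 0.12, and without replicate 2 it was 0.69. Without both treated replicate 1 arrays, Dlst and Idh2 passed as higher and Suclg1 as lower (limma, adjusted p = 0.0425, 0.0363 and 0.0326), where 20.5% of all genes passed. Both doses were compared with the same 2 control arrays.

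The third comparison, of 40 µM with 2.5 µM, asks how the doses differed. None of the 9 passed (limma, 0 of 19505 genes, 0% called, smallest adjusted p = 0.132 over all genes). The median change was 0.15, and at an unadjusted p under 0.05 Suclg1 was higher and 0 were lower, where 2.34% of all genes were higher and 3.28% lower. Suclg1 was also the member with both 40 µM arrays above both 2.5 µM arrays, as 12.4% of all genes and 9.89% of those above the negative control level were, and 0 of the 9 were below, against 16.3%. Between the replicate 1 arrays, which share low hybridisation and poly-A controls, 7 of 9 genes were higher at 40 µM with a median of 0.21. Between the replicate 2 arrays 5 of 9 were, with a median of 0.09. For 4 of the 9 (Idh3a, Idh2, Ogdh and Mdh2) the difference had opposite signs in these pairs, most widely for Idh3a, at 0.95 on replicate 1 and -0.65 on replicate 2. Without both replicate 1 arrays, Idh3a passed as lower and Suclg1 as higher (limma, adjusted p = 0.0068 and 0.029), where 15.2% of all genes passed.

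**Figure D3:**
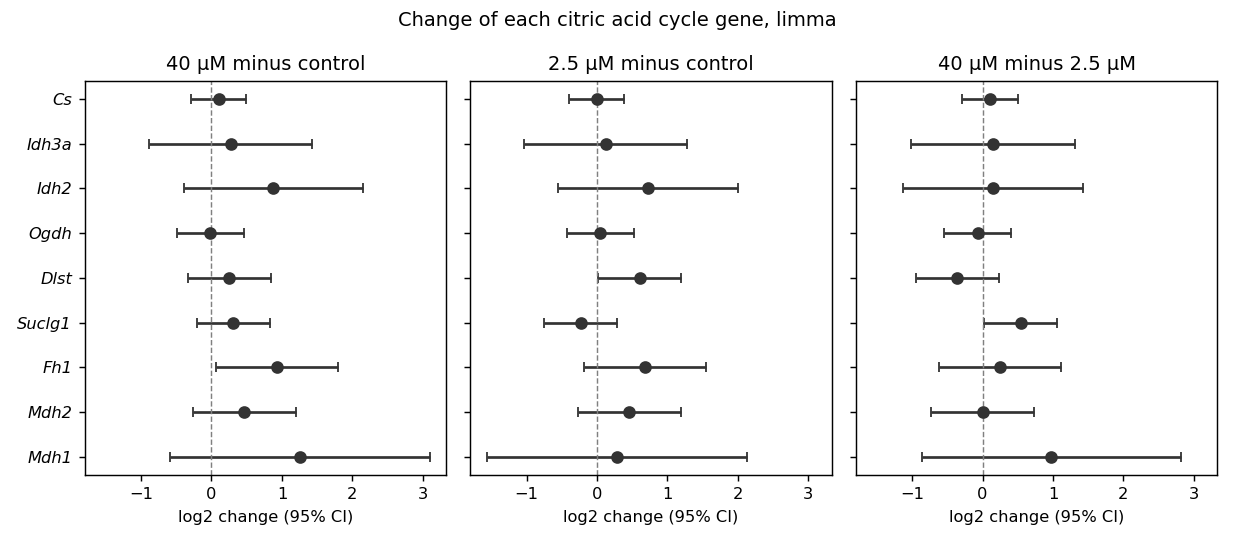
Log2 change of each of the 9 genes in the 3 comparisons, with the 95% confidence interval of the limma fit on all 6 arrays. The intervals of Fh1 at 40 µM (0.07 to 1.79), Dlst at 2.5 µM (0.02 to 1.20) and Suclg1 between the doses (0.02 to 1.06) exclude 0 before adjustment, and none passes adjusted over all genes.

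The other subunits of the cycle were represented by 10 genes, of which 7 lay above the negative control level. None passed in either comparison with control (limma, smallest adjusted p = 0.423 at 40 µM and 0.570 at 2.5 µM), and at an unadjusted p under 0.05 there was likewise none. Their median change was 0.58 at 40 µM and 0.25 at 2.5 µM, with 8 of 10 higher at each dose. Array by array, the median against the control mean was 0.93 and 0.01 on replicates 1 and 2 at 40 µM, and 0.55 and 0.04 at 2.5 µM. The 3 subunits of the NAD-dependent isocitrate dehydrogenase, Idh3a with the regulatory subunits encoded by Idh3b and Idh3g, each lay above both controls on 40 µM replicate 1, by 1.14, 1.43 and 1.59 over the control mean. On 40 µM replicate 2 they were at -0.59, -0.15 and 0.27.

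Dld encodes dihydrolipoamide dehydrogenase, which the 2-oxoglutarate and pyruvate dehydrogenase complexes share. It was at 11.77 and 11.90 in control, at 13.02 and 12.34 at 2.5 µM, and at 13.74 and 11.91 at 40 µM, with 40 µM replicate 2 above the upper control by less than 0.01. Suclg2, the beta subunit of the GTP-forming succinyl-CoA synthetase that pairs with the product of Suclg1, was at 11.68 and 11.70 in control, at 11.27 and 11.43 at 2.5 µM, and at 11.54 on both arrays at 40 µM. All 4 treated arrays lay below both controls, with log2 changes of -0.15 ± 0.18 (SE) at 40 µM and -0.34 ± 0.18 (SE) at 2.5 µM. Of the succinate dehydrogenase genes, which also belong to the respiratory chain, Sdhb was at 14.05 and 12.70 at 40 µM against 12.73 and 12.77 in control. Sdhc was at 10.74 and 10.68 at 40 µM against 10.11 and 10.24, both arrays above both controls. Sdha went the other way on average, at 10.16 and 9.94 at 40 µM against 10.21 and 10.13, a log2 change of -0.12 ± 0.19 (SE). Sdhd, with a mean below the negative control level, was at 10.59 and 8.46 at 40 µM against 8.69 and 8.73.

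Of 11 genes for pyruvate entry (the pyruvate dehydrogenase complex, its kinases and phosphatases, and the mitochondrial pyruvate carrier), none passed at either dose, and 4 lay above the negative control level. On the 40 µM arrays they had medians of 0.93 (replicate 1) and -0.33 (replicate 2) relative to the control mean. Pdhb, the beta subunit of pyruvate dehydrogenase, was at 13.44 and 11.78 at 40 µM against 11.57 and 11.53 in control. It was the 1 gene of the 11 with both 40 µM arrays above both controls, as 22.2% of all genes were. Pdk4, a kinase that inhibits the complex, had a log2 change of -0.57 ± 0.26 (SE) at 40 µM, at levels between 2.83 and 3.76, far below the negative control level. Pdk4 was the 1 gene of the 11 with both 40 µM arrays below both controls, as 26.3% of all genes were.

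Of 13 genes of cytosolic partner enzymes, refilling reactions and carriers, none passed over all genes, while 2 (Got1 and Me1) were higher at an unadjusted p under 0.05 at 40 µM, where 5.18% of all genes were, and 1 (Got1) at 2.5 µM, where 4.24% were. Got1 encodes the cytosolic aspartate aminotransferase, the partner of the Mdh1 enzyme in the malate-aspartate shuttle. It was at 13.14 and 13.22 in control, at 14.17 and 14.18 at 2.5 µM, and at 14.35 and 13.63 at 40 µM. All 4 treated arrays lay above both controls, and at 2.5 µM the replicates differed by less than 0.01, unlike those of Mdh1. The log2 change was 0.99 ± 0.25 (SE) at 2.5 µM (limma, adjusted p = 0.479; unadjusted p = 0.00506) and 0.81 ± 0.25 (SE) at 40 µM (limma, adjusted p = 0.349; unadjusted p = 0.0134).

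Me1 encodes the cytosolic NADP-dependent malic enzyme. It was at 11.84 and 11.94 in control, at 11.78 and 11.73 at 2.5 µM, and at 12.94 and 12.19 at 40 µM, so that 40 µM lay above both other groups. Its log2 change at 40 µM was 0.68 ± 0.26 (SE) (limma, adjusted p = 0.394; unadjusted p = 0.0359). Pck2, the mitochondrial phosphoenolpyruvate carboxykinase, was at 11.37 and 11.50 at 2.5 µM and 11.42 and 11.45 at 40 µM, above controls of 11.13 and 10.97, a log2 change of 0.38 and 0.39 with a standard error of 0.18 (limma, adjusted p = 0.549 and 0.440). Aco1, the cytosolic aconitase that also serves as an iron-sensing RNA-binding protein, was at 10.04 and 10.33 at 2.5 µM and at 10.36 and 10.16 at 40 µM against 9.66 and 9.89.

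**Figure D4:**
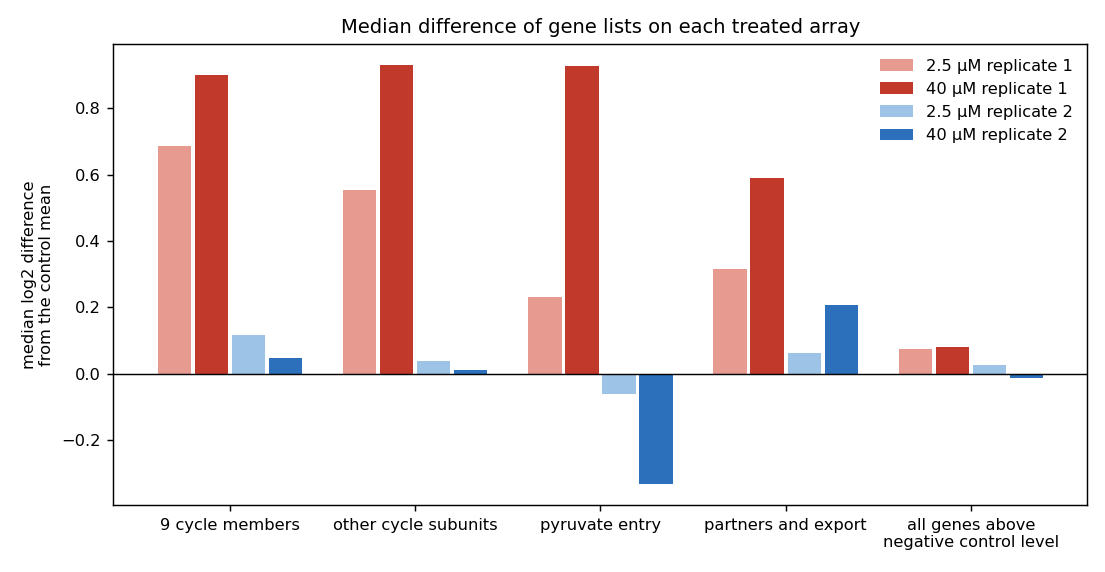
Median log2 difference from the control mean on each treated array, for the 9 cycle genes, 10 other cycle subunits, 11 genes of pyruvate entry, 13 partner and export genes and the 4147 genes above the negative control level. Replicate 1 arrays (red) stand at 0.69 and 0.90 for the 9 cycle genes, and replicate 2 arrays (blue) at 0.12 and 0.05.

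Of 7 measured regulators of mitochondrial genes, 4 lay above the negative control level. At 40 µM 5 of the 7 had a log2 change below 0, with a median of -0.16 against -0.01 over all genes. At that dose 0 passed over all genes (limma, smallest adjusted p = 0.349). Against the control mean their median was -0.31 on 40 µM replicate 1, with 2 of 7 above that mean. On 40 µM replicate 2 it was 0.01, with 4 of 7 above. Ppargc1a, a coactivator of mitochondrial biogenesis, was at 12.69 and 12.54 in control, at 12.15 and 12.39 at 2.5 µM, and at 11.56 and 12.01 at 40 µM, lower on all 4 treated arrays. Its log2 change at 40 µM was -0.83 ± 0.22 (SE) (limma, adjusted p = 0.349; unadjusted p = 0.00647). Nrf1, the gene of the factor whose core is marked above, was at 12.16 and 12.21 in control and at 11.87 and 12.16 at 40 µM. Tfam, the mitochondrial DNA transcription factor, was below the negative control level, at 9.13 and 8.02 at 40 µM against 8.32 and 8.35, with the higher value again on replicate 1.

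Among the other 4138 genes above the negative control level, the 5 whose pattern over the 6 arrays was most like the mean of the 9 were Atp1b3, Cpox, Slc25a5, Cfl1 and Atp5c1. Likeness was Pearson's r, from 0.997 to 0.998, and it describes 6 arrays that share 2 high replicate 1 arrays. Slc25a5, an ADP/ATP carrier, was at 13.80 and 13.87 in control, at 15.04 and 13.84 at 2.5 µM, and at 15.85 and 13.90 at 40 µM. Cfl1, an actin-severing protein outside the mitochondrion, was at 15.16 and 15.73 on the replicate 1 arrays and between 14.53 and 14.60 on the other 4. These genes were picked for the pattern, so their high values on those arrays are a description.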

How the data were processed

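Per the submitters' processing notes, the authors made the deposited log2 values with RMA in Affymetrix Expression Console, with Transcriptome Analysis Console also named. RMA corrects background, normalizes between arrays and summarises probes. For versions, settings and genome build, nothing was given in the sources used here. Values reached 19.9, above the 16 of a plain log2 16-bit scale, so an unstated step shaped the scale. The table held 28846 features, of which 19572 had exactly 1 gene symbol. The highest-mean feature stood for the 55 genes with several. All 19505 genes were kept, whatever their level.

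Groups followed the sample titles. Some descriptions name another treatment and were not followed. One limma fit (version 3.58.1, R 4.3.3) over the 6 arrays gave all comparisons, two-sided, with a variance prior following the mean level. It had 3 residual and 4.11 prior degrees of freedom. P-values were adjusted by Benjamini-Hochberg over all genes, at a threshold of 0.05. The fit was run on simulated data with less spread between replicates than these arrays and with large planted changes. That run does not measure how well the fit finds changes at the spread seen here. Members, lists and alternatives were chosen with earlier results of these data known. All 9 members are named. Of the other lists, cycle subunits and regulators could be named whatever their values, up to 4 genes of each other list by smallest p, and 5 genes by likeness to the mean of the members. Some genes of those lists are not reported here. The number of arrays limits the precision.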

Additional observations from a re-analysis of the deposited data

How the results depend on the processing

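Each value was recomputed under 14 alternatives, 6 of which leave out 1 array, all set with earlier results known. Of 378 recomputed log2 changes of single members, 335 kept their direction and their side of the threshold, 34 changed sign and 9 passed newly with the same sign. In all, 11 passed newly, as 2 of those that changed sign, both of Idh3a, passed too. Many of the 335 could not change sign, so their number does not measure robustness. The replicate block, the prior without a trend, the restriction to genes at or above the median level and the separate features leave each change as it was. Leaving out 1 array does the same for the comparison that does not use its group. The count of genes passing at 40 µM ranged from 0 to 2235 with 1 array left out. Without both arrays low in control features it was 3749 at 40 µM, 3991 at 2.5 µM and 2965 between doses, where the 2 controls alone give the error. There Fh1 passed as higher (0.57, limma adjusted p = 0.00896) and Idh3a, its sign changed, as lower (-0.59) at 40 µM, where 19.2% of all genes passed. At 2.5 µM Dlst (0.36), Idh2 (0.32) and Suclg1 (-0.36) passed, where 20.5% did, and between doses Idh3a (-0.65, sign changed) and Suclg1 (0.46), where 15.2% did. In the same fit, the other values that changed sign were -0.061 for Mdh1 and 0.20 for Ogdh at 40 µM, -0.28 for Mdh1 at 2.5 µM, and -0.32 for Idh2, -0.21 for Mdh2 and 0.086 for Ogdh between doses. When the array split was fitted as a block, the 9 had a median of 0.13 at 40 µM in place of 0.31 and 0.086 at 2.5 µM in place of 0.28, with 5 of 9 above 0 at 2.5 µM in place of 7. In that fit Idh3a changed sign to -0.19 at 40 µM and -0.34 at 2.5 µM, Mdh1 to -0.66 at 2.5 µM and Ogdh to 0.12 at 40 µM, and 1 gene, Srxn1 (outside the naming rule, named after its value was seen), passed between doses. With arrays centred on their medians, Ogdh at 40 µM became 0.016 and Cs at 2.5 µM 0.012. With quantile normalization, Ogdh at 2.5 µM became -0.015 and Mdh2 between doses -0.011. The cause of these changes was not tested.

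With 1 array left out, the ranges that cross 0 were as follows. Values at 40 µM against control ranged from -0.59 to 1.14 for Idh3a, -0.061 to 2.58 for Mdh1 and -0.24 to 0.20 for Ogdh. At 2.5 µM they ranged from -0.12 to 0.11 for Cs, -0.28 to 0.84 for Mdh1 and -0.019 to 0.12 for Ogdh. Between doses they ranged from -0.0073 to 0.22 for Cs, -0.23 to 0.73 for Fh1, -0.73 to 1.03 for Idh2, -0.72 to 1.02 for Idh3a, -0.34 to 2.30 for Mdh1, -0.43 to 0.44 for Mdh2 and -0.29 to 0.15 for Ogdh. The median of the 9 ranged from 0.05 to 0.90 at 40 µM, from 0.12 to 0.69 at 2.5 µM and from -0.34 to 0.61 between doses.

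Samples share replicate numbers, but nothing in the labels says that a number marks a shared batch. Deviations of replicate 1 from replicate 2 correlated across genes at -0.00 between control and 2.5 µM and at -0.01 between control and 40 µM. The numbers were therefore not taken as pairs across the 3 groups. Between the doses the deviations correlated at 0.39, a shared part that the main fit does not model. With the replicate block, 0 genes passed in each comparison (limma, smallest adjusted p = 0.216 at 40 µM, 0.400 at 2.5 µM and 0.0665 between doses). As each group holds both numbers, this block cannot move the changes, and the medians of 0.31, 0.28 and 0.15 are those without it.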
